A study of Mus musculus with 15 samples.

Results

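The G-Sham group, 4 femur samples of C57BL/6J male mice kept on the ground and not operated, was measured here against a common reference RNA hybridised to the same arrays. These are 4 of the 15 arrays of the series, and they were chosen by their titles, with no measured value used. The other 11 arrays carried femurs of mice that flew in space, of mice with a segmental bone defect, or of both, and none of the G-Sham mice had either. The labels gave the age as 9 weeks, the treatment as unoperated sham controls and the tissue as callus. Per the study's methods, 9 weeks was about the age at the time of surgery, and the mice were killed some weeks later. A femur that was not operated has no callus. The piece taken was, per the same methods, the shaft region matching the callus of the operated mice. Both ends were cut away and the frozen piece was ground whole. Bone, marrow, vessels and any muscle left on the surface therefore entered each RNA sample. The study called the quality of its bone RNA sub-optimal and proposed that a freeze-thaw cycle had lowered it further. How far RNA quality shaped the ratios to the reference was not tested. The labels number the samples and do not state that each came from a separate mouse, although the study's methods count the groups in mice. The femur RNA was labelled with Cy5 and the reference, a commercial pool of total RNA from mouse cell lines, with Cy3 on every array, so that a dye effect of a probe and a difference between the RNAs cannot be told apart.

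A long bone shaft holds mineralised matrix laid down by osteoblasts, the osteocytes buried in it, and osteoclasts, which dissolve it. The marrow inside makes red cells, granulocytes, monocytes, B cells and platelets within a stroma of reticular cells, fat cells and sinusoidal vessels. Skeletal muscle inserts on the outer surface. A reference pooled from growing cell lines is a fixed yardstick for comparing arrays, and a ratio to it says how rich the femur RNA was in a transcript relative to those cultured cells, not how much of the transcript a cell held. In RNA of a whole piece, fewer cells of a type and less RNA per cell cannot be told apart.

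The quantity given for a gene is the log2 ratio of femur over reference, from its brightest tested probe, where 1 is a 2-fold higher signal in the femur. Values on the 4 arrays are listed in the order replicate 1, 3, 4 and 5, and means are given ± SD with n = 4. A probe was tested where the femur or the reference was well above background on each of the 4 arrays, and 25898 of 55681 probes passed. A gene was called at an absolute log2 ratio of at least 1 and an adjusted p of at most 0.05 (limma's moderated test against 0, Benjamini-Hochberg). Of 13401 genes tested, 2018 were higher in the femur (15.1%) and 7116 were lower (53.1%). The low side is set in part by detection: the femur signal of 4170 genes was not above background on any of the 4 arrays, and 4018 of the genes called lower were among them, so for those a lower bound of the fold is given in place of a ratio. On each array 12861 to 18291 probes had a Cy5 signal well above background and 25860 to 33981 a Cy3 signal, and among spots above background in both channels the Cy3 signal before dye scaling was 33.2 to 80.4 times the Cy5 signal. Among 5028 genes with both channels above background on all 4 arrays, where either direction could be measured, 1581 were higher (31.4%) and 1013 were lower (20.1%). Counts and medians of the gene lists cover the members tested. A member with the femur below background on every array could only be low, so these counts describe the lists and are not support for a direction.

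The zero of the scale depends on the dye normalization made by the scanner software. The median log2 ratio was -1.40 over all genes tested and 0.07 over the genes measured in both channels. Centring each array on the median of its tested probes raised the mean of every gene by 1.22 and gave 3787 higher and 4295 lower genes, a further loess gave 3182 and 4225, and background correction by normexp followed by loess gave 1446 and 610. The mean ratios of Myh1, Myh4, Hba-a2, Hbb-bt and S100a9 are larger than the shift of 1.22, and those of many other members are not. A log2 ratio between 0 and -1.22 turns positive under median centring, and the medians of the lists for osteoclasts, tendon, embryonic muscle, smooth muscle, monocytes, megakaryocytes, T and NK cells, antigen presentation, Schwann cells, Wnt and BMP, ubiquitous genes and ribosomal proteins change sign under at least 1 of these scalings.

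The arrays were alike in rank, with correlations between pairs of 0.802 to 0.897 over the tested probes, and replicate 1 stood apart. Its median log2 ratio over all genes was -2.0, against -1.07 to -1.28 on the other 3 arrays. It had the fewest probes with Cy5 above background (12861), although replicate 5 had nearly as few (13255). Replicate 1 was the lowest of the 4 arrays in the lists for fast-twitch muscle, osteoblasts, osteoclasts, chondrocytes, adipocytes, tendon, erythroid cells and neutrophils. Of 51 genes that were above background in Cy5 on 3 arrays and in Cy3 on none, and were therefore not tested, 42 were missed on replicate 1. Where the call of a named gene changed when 1 array was left out, the array is named beside the gene.

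**Figure D1:**
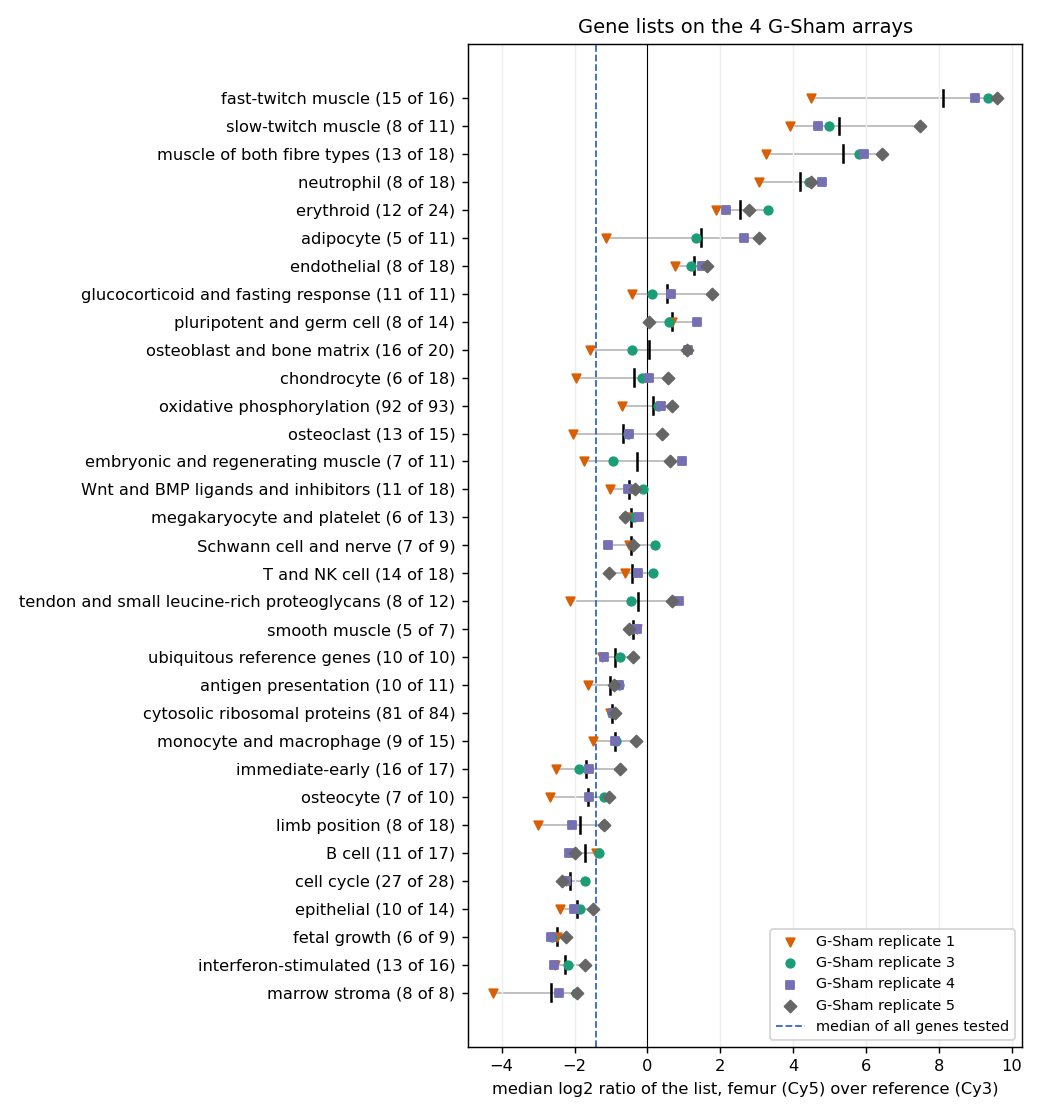
Median log2 ratio of each gene list (femur, Cy5, over universal reference RNA, Cy3) on each of the 4 G-Sham arrays, for lists with at least 5 genes tested, with the number tested of the number listed in brackets. Points are arrays, black ticks their means, grey lines their ranges, and the dashed line is the median of all genes tested (-1.40). The 3 lists of mature muscle lie at the top, with no array below 3.26, and marrow stroma lies at the bottom.

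Of the lists with at least 5 genes tested, the 3 of mature skeletal muscle had the highest medians. Of 15 fast-twitch genes tested of 16 listed, 14 were higher and 1 was lower, with a median log2 ratio of 7.81 beside the -1.40 of all genes. Of 8 slow-twitch genes tested of 11, 5 were higher and 3 were not called (median 5.53), and of 13 genes shared by both fibre types tested of 18, 12 were higher and 1 was not called (median 5.27). On replicate 1 the fast-twitch median was 4.50, against 8.99 to 9.59 on the other 3. On the 11 arrays of the other groups the median of the same fast-twitch probes ran from 3.43 to 9.29, a range that holds 2 of the 4 G-Sham arrays, and no difference between groups was tested here.

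The motor proteins led. Myh1, the heavy chain of fast type 2X fibres, gave log2 ratios of 13.02, 12.34, 10.67 and 12.03 and a mean of 12.02 ± 0.99 (adjusted p = 9.55e-05). Myh4, the chain of type 2B fibres, gave 11.76, 11.45, 10.67 and 11.22 (mean 11.27 ± 0.46, adjusted p = 9.55e-05). Both were high on every array, replicate 1 included. Myh2, the chain of type 2A fibres, was above background in the femur on 4 arrays and in the reference on none, and was at least 1220.2-fold higher in the femur. Myh7, the slow type 1 chain, gave 5.92, 7.09, 6.51 and 10.13 (mean 7.41 ± 1.88), and the highest of its 4 values was on replicate 5. The heavy chain genes are close in sequence, and how far a probe for one binds another was not tested.

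**Figure D2:**
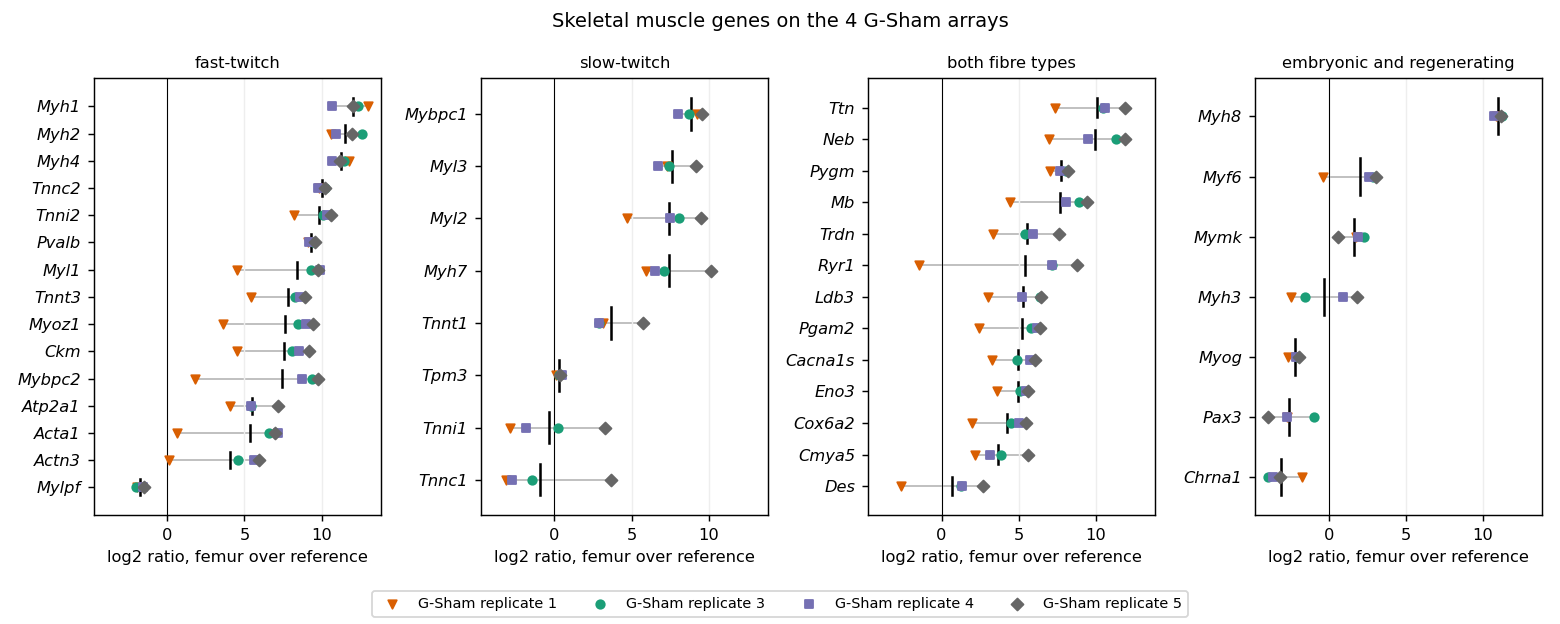
Log2 ratios (femur over reference) of tested members of 4 muscle lists on each of the 4 G-Sham arrays. Points are arrays, black ticks their means and grey lines their ranges. Most fast-twitch members lie above 5 on replicates 3, 4 and 5, replicate 1 lies far below them for Mybpc2, Acta1, Actn3 and Ryr1, and Mylpf lies below 0 on all 4 arrays.

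The fast troponin genes, which switch the thin filament on with calcium, were high on all 4 arrays. Tnnc2 gave 9.85, 10.24, 9.78 and 10.20 (mean 10.02 ± 0.24, adjusted p = 9.55e-05), and Tnni2 gave 8.24, 10.12, 10.33 and 10.61 (mean 9.82 ± 1.08). Pvalb, the calcium buffer of fast fibres, gave 9.11, 9.47, 9.15 and 9.59 (mean 9.33 ± 0.24, adjusted p = 9.55e-05). For Tnnc2 and Pvalb the 4 arrays lay close together. Tcap, which ties titin to the Z-disc, was as even, at 10.05, 10.10, 9.73 and 10.13 (mean 10.00 ± 0.19).

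Other fibre genes differed between the samples. Acta1, the sarcomeric actin, gave 0.62, 6.58, 7.16 and 7.01 (mean 5.34 ± 3.16, adjusted p = 0.00644). Mybpc2, the fast myosin-binding protein, gave 1.81, 9.39, 8.71 and 9.78 (mean 7.42 ± 3.77), and Ryr1, the calcium release channel, gave -1.49, 7.18, 7.17 and 8.81 (mean 5.42 ± 4.67, adjusted p = 0.0266). The call for Ryr1 was lost without replicate 3, 4 or 5 (4.29 to 4.83), and those for Ryr1 and Acta1 with no filter on dim probes. In each of the 3 genes replicate 1 was lowest by a wide margin, and for Mybpc2 and Ryr1 the femur was not above background there. Myot, Xirp2, Smpx and Ckmt2, all proteins of the fibre or its mitochondria, were above background in the femur on replicates 3, 4 and 5 and in the reference on no array, and were not tested because replicate 1 was below background in both channels.

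Of the giant scaffold proteins, Ttn (titin) gave 7.37, 10.48, 10.63 and 11.91 (mean 10.10 ± 1.93, with 3 probes between 4.85 and 10.10), and Neb (nebulin), with the reference above background on 2 arrays, gave 6.96, 11.34, 9.53 and 11.87 (mean 9.93 ± 2.22). Mb (myoglobin), the oxygen store, gave 4.42, 8.89, 8.08 and 9.46 (mean 7.71 ± 2.27). All were lowest on replicate 1. Ckm, muscle creatine kinase, was above background in the reference on no array and was at least 122-fold higher in the femur. The same was true of Trdn (triadin), a partner of the release channel, with a bound of 34.0-fold. 3 other genes of this kind that were not on the lists were Dhrs7c, an enzyme of the sarcoplasmic reticulum, at least 149-fold higher, Vgll2, a cofactor of muscle transcription (lower bound 74.0-fold), and Smtnl1 (lower bound 46.4-fold).

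The members that went the other way were few. Mylpf, the fast regulatory light chain, was not above background in the femur on any array and was called lower, by at least 1.35-fold, while Myl1, the fast essential light chain, gave 4.49, 9.33, 9.92 and 9.79 (mean 8.38 ± 2.61). Another probe of Mylpf that failed the filter had a mean of 1.48, so the probes of this gene disagree. Tnnc1 and Tnni1, the slow troponins C and I, were above background in the femur on 1 array, replicate 5, and were not called (-3.17, -1.49, -2.78 and 3.65 for Tnnc1), although without that array Tnnc1 was called lower (-2.48). Replicate 5 was also the highest for Myh7, Myl2 (4.68, 8.10, 7.48 and 9.52) and Tnnt1 (3.13, 2.87, 2.87 and 5.73), the slow forms of the heavy chain, light chain and troponin T.

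The genes of forming or repairing fibres were mixed. Of 7 tested of 11, 3 were higher, 3 were lower and 1 was not called. Myh8, the perinatal heavy chain, gave 10.86, 11.26, 10.73 and 11.18 (mean 11.00 ± 0.25, adjusted p = 9.55e-05), whereas Myh3, the embryonic chain, gave -2.47, -1.52, 0.95 and 1.86 (mean -0.29 ± 2.04) and was not called. Myf6, the myogenic factor kept in adult fibres, was higher (mean 2.06 ± 1.61, adjusted p = 0.0233), a call lost without replicate 3, 4 or 5 (1.72 to 1.87). Myog, the factor of differentiating myoblasts, was at least 2.14-fold lower and Chrna1, a subunit of the acetylcholine receptor, at least 6.04-fold lower. Pax7 and Myf5, which mark muscle stem cells, were above background on no array in either channel.

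Where a protein has a muscle form and a widely expressed form, the femur was rich in the muscle form. In 12 such pairs all 12 muscle forms were called higher, and of the partner forms 5 were lower, 6 were not called and 1 was higher. The pairs were picked with these values known, so the counts describe them and test nothing. Cox8b was above background in the reference on 2 of the 4 arrays. Each form of creatine kinase had a channel above background on no array, so the order of the pairs is uncertain. The widest mean difference in a pair was 10.26 ± 1.67, between Cox8b and Cox8a, and the next was 9.76 ± 1.77, in phosphoglycerate mutase, a step of glycolysis. Pgam2, the muscle form, gave 2.44, 5.79, 6.22 and 6.41 (mean 5.21 ± 1.87, adjusted p = 0.000946), and Pgam1 gave -4.76, -4.44, -4.15 and -4.84 (mean -4.55 ± 0.32, adjusted p = 9.55e-05). Pgam1 had the lowest ratio of all genes called lower with both channels measured on all 4 arrays.

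The same held for energy enzymes and the respiratory chain. Eno3, muscle enolase, gave 3.60, 5.06, 5.49 and 5.63 (mean 4.95 ± 0.93), and Eno1 gave 0.47, 0.38, -0.047 and 0.026. Pygm, muscle glycogen phosphorylase, had a mean of 7.74 ± 0.52, and Pygb, the brain form, one of -1.62 ± 0.80. Cox8b had a mean of 10.52 ± 1.66 and Cox8a one of 0.26 ± 0.14, both subunits of cytochrome c oxidase. Cox6a2 (4.24 ± 1.56) and Cox6a1 (-2.10 ± 0.26), and Cox7a1 (4.28 ± 1.60) and Cox7a2 (-0.091 ± 0.43), split in the same way. In 11 of the 12 pairs the muscle form had the higher ratio on all 4 arrays. The exception was the alpha actinins, where Actn3, the form of fast fibres, lay below Actn1 on replicate 1 (0.12 and 0.51). The call for Actn3 was lost without replicate 5 (3.44), and that for Actn1, the 1 partner called higher, without replicate 3 (1.07) or replicate 5 (0.83).

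**Figure D3:**
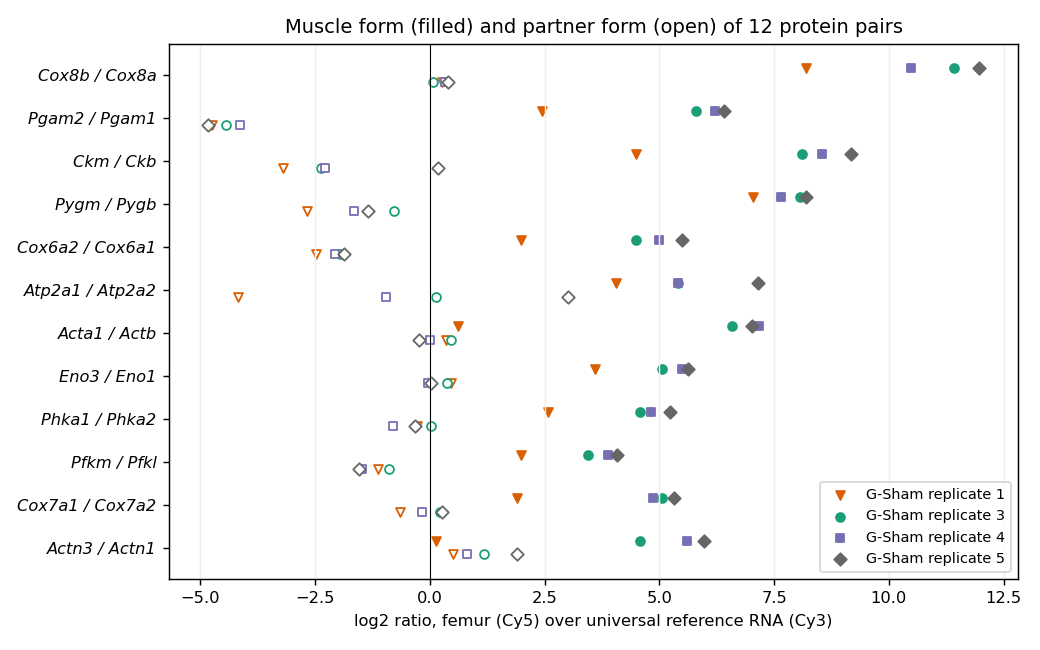
Log2 ratios (femur over reference) of 12 muscle forms (filled) and their partner forms (open) on each of the 4 G-Sham arrays. Each row is a pair, ordered by the mean difference of the pair. The filled points lie right of the open points of the same array in 11 of the 12 pairs.

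The promoters of a leading muscle gene, of the phosphoglycerate mutase pair and of the leading granulocyte gene are shown for their sequence, from RefSeq on build GRCm38.p6, each running from 250 bases before to 50 bases after the annotated start. Capitals mark CANNTG, the E-box bound by the myogenic factors and many others, on either strand (it reads the same on both), and TATAAA on the gene's own strand. In S100a9 capitals mark TATAAA and TTGCNNAA, on either strand, a core bound by C/EBP factors. No marked motif overlapped another.
Myh4, chr11:67237562-67237861, plus strand: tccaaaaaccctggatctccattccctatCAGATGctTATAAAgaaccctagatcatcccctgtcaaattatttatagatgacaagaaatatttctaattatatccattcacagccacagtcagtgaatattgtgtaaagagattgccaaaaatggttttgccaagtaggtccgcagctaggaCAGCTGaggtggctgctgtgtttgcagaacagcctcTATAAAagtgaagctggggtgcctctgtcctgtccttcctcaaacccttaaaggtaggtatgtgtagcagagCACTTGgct
Pgam2, chr11:5803747-5804046, minus strand: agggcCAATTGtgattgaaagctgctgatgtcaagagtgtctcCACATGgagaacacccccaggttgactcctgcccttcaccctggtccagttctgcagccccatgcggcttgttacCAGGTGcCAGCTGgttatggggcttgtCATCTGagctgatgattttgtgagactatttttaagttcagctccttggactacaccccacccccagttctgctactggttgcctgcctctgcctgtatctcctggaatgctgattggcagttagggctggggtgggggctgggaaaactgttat
Pgam1, chr19:41911621-41911920, plus strand: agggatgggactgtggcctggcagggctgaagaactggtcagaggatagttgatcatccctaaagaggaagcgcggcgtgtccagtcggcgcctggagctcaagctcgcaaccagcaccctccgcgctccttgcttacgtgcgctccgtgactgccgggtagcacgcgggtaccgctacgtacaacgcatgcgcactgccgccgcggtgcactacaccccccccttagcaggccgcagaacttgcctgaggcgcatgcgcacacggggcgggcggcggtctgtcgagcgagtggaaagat
S100a9, chr3:90695672-90695971, minus strand: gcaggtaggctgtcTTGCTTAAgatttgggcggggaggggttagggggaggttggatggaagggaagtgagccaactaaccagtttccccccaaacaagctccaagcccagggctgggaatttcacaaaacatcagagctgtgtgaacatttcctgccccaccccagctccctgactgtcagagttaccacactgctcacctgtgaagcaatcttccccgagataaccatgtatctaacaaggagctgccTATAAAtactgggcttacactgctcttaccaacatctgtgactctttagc
The Pgam2 window holds 5 E-boxes and the Pgam1 window 0, the Myh4 window 3 and also 2 matches to TATAAA, and the S100a9 window 1 match each to TATAAA and TTGCNNAA. CANNTG stands in 72.1% of the first listed promoters of 27025 genes, TATAAA in 8.88% and TTGCNNAA in 10.8%. Over the 10661 genes tested with a promoter these shares were 64.1%, 5.37% and 8.70%. Among the muscle genes called higher, 24 of 31 had a promoter in the table, and 19 of the 24 held CANNTG and 5 held TATAAA. A match is a run of letters, and binding was not measured.

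Red cell genes were rich as well. Of 24 erythroid genes listed, 12 were tested, 8 of them higher, 1 lower and 3 not called, with a median of 2.49, and without replicate 1 the median over the genes then tested was 4.12. Hba-a2, adult alpha globin, gave 10.11, 9.77, 9.50 and 9.39 (mean 9.69 ± 0.32, adjusted p = 9.55e-05), and Hbb-bt, adult beta globin, gave 9.03, 9.76, 8.61 and 9.17 (mean 9.14 ± 0.48). Hba-a1 had a mean of 6.42 ± 0.70. The globin genes have near-identical copies, so which copy was read is uncertain. Hbb-b1 and Hbb-b2 were above background in the femur on replicates 3, 4 and 5 and in the reference on none. Of the embryonic globins, Hbb-bh1 lay at 0.016 ± 1.22 and was not called, and Hba-x was above background on no array.

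Genes of the red cell membrane and of haem synthesis were higher at smaller ratios. Ermap, an erythroid membrane protein, gave 5.74, 5.76, 5.05 and 5.55 (mean 5.52 ± 0.33), Slc4a1, the anion exchanger band 3, had a mean of 3.39 ± 1.24 and Hemgn, a nuclear factor of erythroid cells, one of 4.68 ± 0.28. Fech, ferrochelatase, had a mean of 1.60 ± 0.48. Alas2, the first enzyme of erythroid haem synthesis, was above background in the femur on 3 arrays and in the reference on none. Of the early markers, Gata1, the erythroid transcription factor, was above background in the femur on replicates 1 and 3 and in the reference on no array, and was not tested. Tfrc, the transferrin receptor, and Epor, the erythropoietin receptor, were not called, Klf1 was not above background in the femur on any array, and Rhd, a blood group antigen, was at least 7.12-fold lower.

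Some neutrophil genes were rich. Of 18 listed, 8 were tested, 5 of them higher and 3 not called, with a median of 3.78. S100a9, the calcium-binding protein that fills the neutrophil cytosol, gave 11.13, 12.32, 10.84 and 11.62 (mean 11.48 ± 0.65, adjusted p = 9.55e-05), the second largest ratio among genes measured in both channels. Ngp, neutrophilic granule protein, was at least 561-fold higher, and Camp, the cathelicidin of secondary granules, gave 8.07, 9.10, 5.49 and 6.68 (mean 7.33 ± 1.58). Elane (neutrophil elastase, 3.40 ± 0.19) and Mpo (myeloperoxidase, 4.16 ± 1.97), primary granule enzymes of promyelocytes, were higher too. Prtn3 and Ctsg, listed enzymes of the same granules, were not tested. S100a8, the usual partner of S100a9, gave -3.74, 3.48, 4.06 and 5.34 and was not called, with the femur below background on replicate 1, and without that array it was called higher (4.29). Lcn2 (0.12 ± 0.33) and Chil3 (-0.67 ± 0.84) were measured in both channels and not called, and without replicate 1 Chil3 was called lower (-1.02). Mmp8, Fcnb and Ms4a3 were above background in the femur on no array. The only eosinophil gene tested of 12 eosinophil, basophil and mast cell genes, Prg2 (major basic protein), was at least 12.8-fold higher.

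**Figure D4:**
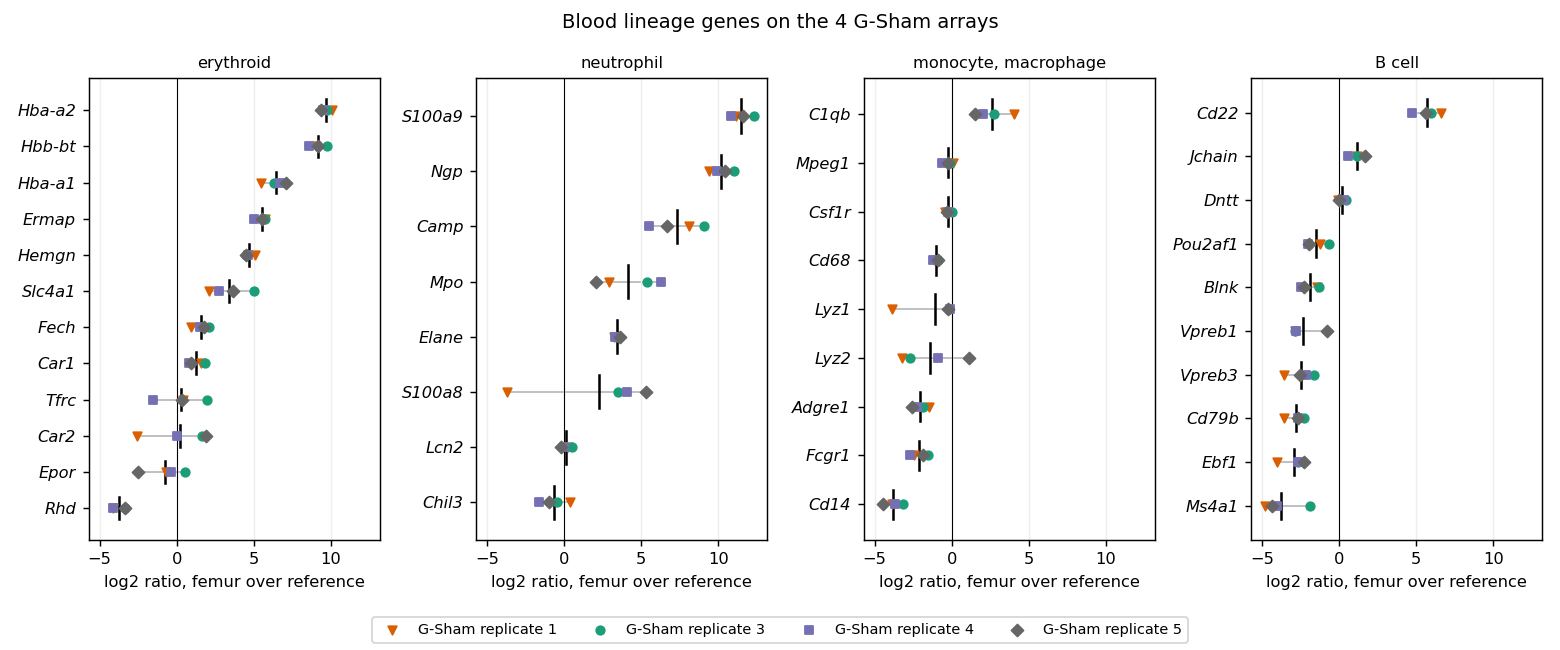
Log2 ratios (femur over reference) of tested members of 4 blood lineage lists on each of the 4 G-Sham arrays. Points are arrays, black ticks their means and grey lines their ranges. The adult globins and the leading granule genes lie above 5 on all 4 arrays, S100a8 spans both sides of 0, and most monocyte and B cell members lie below 0.

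The monocyte and macrophage list lay near all genes tested, of which 15.1% were higher and 53.1% lower (median -1.40). Of 9 tested of 15, 1 was higher, 4 were lower and 4 were not called, with a median of -1.10 that turned to 0.12 when arrays were centred on their medians. C1qb, a complement subunit made by macrophages, was higher (4.05, 2.74, 2.04 and 1.51, mean 2.58 ± 1.10). Csf1r, the receptor for the macrophage growth factor, lay at -0.25 ± 0.19 by its brightest probe and was not called, and its 3 probes ran from -0.25 to 3.21. Cd68 lay at -1.03 ± 0.18, a lower call lost without replicate 4 (-0.96), and Adgre1, the F4/80 antigen, was at least 4.13-fold lower. Of 6 megakaryocyte and platelet genes tested of 13, 1 was higher and Pf4, the platelet chemokine, was lower (-1.44 ± 0.031) together with Gp9, and 3 were not called (median -0.37, 0.31 without replicate 5). The femur signal of Gp9 was below background on all 4 arrays, and its call was lost without replicate 1, 3 or 5 (-1.42 to -0.88), with no filter on dim probes, under each of the other scalings (0.079 under a further loess) and with all 15 arrays in the fit.

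The lymphoid lists held genes far from each other. Of 11 B cell genes tested of 17, 3 were higher and 7 lower (median -1.89). Cd22, a surface lectin of B cells, gave 6.60, 5.96, 4.70 and 5.62 (mean 5.72 ± 0.79), but Cd79b, part of the B cell receptor, had a mean of -2.81 ± 0.55 and Ms4a1 (CD20) one of -3.79 ± 1.31. Ebf1, the factor that specifies the lineage, was at least 5.77-fold lower. Of 14 T and NK cell genes tested of 18, 4 were higher, 6 lower and 4 not called (median -0.39, -0.73 without replicate 4 and 0.074 without replicate 5). Cd4 gave 5.87, 5.99, 6.05 and 6.59 (mean 6.12 ± 0.32), yet of the CD3 chains Cd3e lay at 1.81 ± 0.26, Cd3d was not called, though it was called lower without replicate 4 (-1.49), and Cd3g was at least 11.4-fold lower. Genes of 1 receptor complex thus lay on both sides of the reference. Of 10 antigen presentation genes tested of 11, 1 was higher, 5 were lower and 4 were not called (median -0.92), with Ciita, the regulator of class II genes, at 7.70, 8.09, 7.21 and 7.78, while its target Cd74 was not called (0.74 ± 0.58), and B2m, the light chain of class I, was lower (-3.92, -3.56, -3.26 and -3.38, mean -3.53 ± 0.29). The high ratios of Cd22, Cd4 and Ciita stood without those of the partner genes given beside them, and what these 3 probes bound was not tested.

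Bone genes lay on both sides of the reference. Of 16 osteoblast and matrix genes tested of 20, 4 were higher, 4 were lower and 8 were not called, and the list median was 0.19, which is 1.59 above the median of all genes. Its median on the arrays was -1.59 on replicate 1, -0.42 on replicate 3, 1.12 on replicate 4 and 1.07 on replicate 5, and it was 0.77 without replicate 1, 0.45 without replicate 3, -0.21 without replicate 4 and 0.31 without replicate 5. The spread between the samples exceeded the distance from 0.

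The 4 called higher were Bglap3, Bglap2, Ibsp and Col1a1, while other genes of bone matrix on the list were called lower or not called. Bglap3 gave 5.76, 4.13, 7.25 and 5.82 (mean 5.74 ± 1.28, adjusted p = 0.000208) and Bglap2, osteocalcin, a matrix protein of mature osteoblasts, gave 0.51, 2.49, 5.80 and 3.98 (mean 3.20 ± 2.24, adjusted p = 0.0138). Without replicate 5 the call for Bglap2 was lost (2.93). The osteocalcin genes are near-identical copies, so which copy was read is uncertain, and Bglap itself was not tested. Ibsp, bone sialoprotein, gave 2.43, 0.86, 1.99 and 2.40 (mean 1.92 ± 0.74) and Col1a1, the main chain of bone collagen, gave 1.37, 1.41, 2.61 and 1.41 (mean 1.70 ± 0.61, adjusted p = 0.00321). Col1a2 (0.94 ± 0.39) and Sparc (0.84 ± 0.15) were above the reference on all 4 arrays, with means under the 2-fold threshold, and Col1a2 passed it without replicate 1 (1.07) or replicate 3 (1.01). Spp1, osteopontin, lay at -0.65 ± 0.49 and was not called.

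The factors that make an osteoblast were at or below detection. Sp7 and Dlx5 were above background on no array in either channel, Ifitm5 was not above background in the femur on any, and Runx2 was at least 3.17-fold lower by its tested probe, although a brighter probe that failed the filter on replicate 5 had a mean over the other 3 arrays of 1.48. Postn, a periosteal matrix protein, gave -2.82, -0.64, 3.27 and 1.64, and Alpl, the phosphatase of mineralising cells, gave -2.68, -1.45, 1.45 and 0.95. For both, replicates 4 and 5 lay above the reference and replicates 1 and 3 below it.

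**Figure D5:**
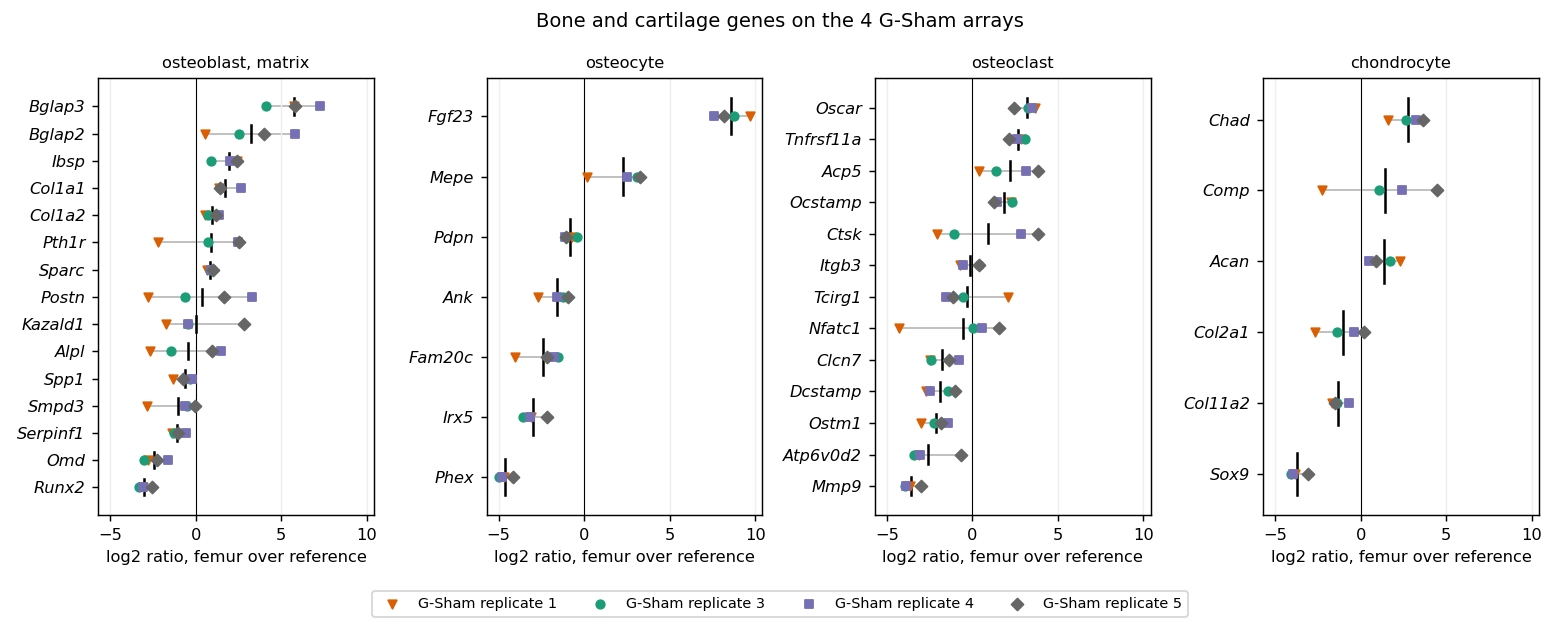
Log2 ratios (femur over reference) of tested members of the osteoblast, osteocyte, osteoclast and chondrocyte lists on each of the 4 G-Sham arrays. Points are arrays, black ticks their means and grey lines their ranges. Members lie on both sides of 0 in every list, and Fgf23 and Bglap3 lie farthest to the right.

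Among 7 osteocyte genes tested of 10, 2 were higher, 4 lower and 1 not called. Fgf23, the phosphate hormone of osteocytes, gave 9.68, 8.77, 7.60 and 8.18 (mean 8.56 ± 0.89, adjusted p = 9.55e-05), and Mepe, a matrix protein of osteocytes, gave 0.15, 3.1, 2.53 and 3.26 (mean 2.26 ± 1.44, adjusted p = 0.0113), a call lost without replicate 5 (1.93). Sost, the Wnt inhibitor that defines mature osteocytes, was above background on no array in either channel, and Dmp1 was not above background in the femur on any. Phex, which acts on the same pathway as Fgf23, was at least 12.3-fold lower. The ratio of Fgf23 stood without high ratios of Sost, Dmp1 or Phex. It was largest on replicate 1, where the median of this list was lowest, and what the Fgf23 probe bound was not tested. The median of the 7 was -1.60, and over the members measured in both channels on all 4 arrays, Fgf23 and Pdpn, it was 3.87.

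Among 13 osteoclast genes tested of 15, 4 were higher, 5 lower and 4 not called (median -0.29, which turned positive under each of the 3 other scalings and was 0.082 without replicate 1 and 0.014 without replicate 4). Tnfrsf11a (RANK), the receptor that starts the osteoclast programme, gave 2.83, 3.06, 2.61 and 2.15 (mean 2.66 ± 0.38), and Oscar, a co-stimulating receptor of osteoclasts, gave 3.66, 3.24, 3.48 and 2.41 (mean 3.20 ± 0.55). Acp5, the tartrate-resistant phosphatase, gave 0.38, 1.37, 3.13 and 3.84 (mean 2.18 ± 1.59, adjusted p = 0.018). Ctsk, the collagen-cutting protease, gave -2.05, -1.05, 2.85 and 3.84 and was not called. The call for Acp5 was lost without replicate 4 (1.86) or replicate 5 (1.63). Acp5 and Ctsk had the same order, with replicates 4 and 5 above replicates 1 and 3. Tnfrsf11a and Oscar were lowest on replicate 5, where Acp5 and Ctsk were highest. Mmp9 was at least 5.97-fold lower and Atp6v0d2, a proton pump subunit, at least 3.22-fold lower. Of the ligand side, Tnfrsf11b (osteoprotegerin), the decoy that blocks RANK ligand, was at least 4.42-fold lower.

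Cartilage genes were mostly beyond detection. Of 18 listed, 6 were tested, 2 were higher, 2 were lower and 2 were not called (median 0.15, and 0.25, -0.94, -0.087 and 0.42 without replicate 1, 3, 4 and 5 in turn). Col10a1, Matn1, Matn3, Hapln1, Cnmd, Ucma, Epyc and Col9a3, markers of cartilage, were above background on no array in either channel. Col2a1, the collagen of cartilage, was not above background in the femur on any array, and Sox9, the chondrocyte factor, was at least 6.85-fold lower. Chad, a matrix protein that cells bind, was higher (1.62, 2.63, 3.23 and 3.63, mean 2.78 ± 0.87), as was Acan (2.33, 1.69, 0.47 and 0.89, mean 1.34 ± 0.83), the latter above background in the femur on 2 arrays and not called without replicate 3 (1.23) or with no filter on dim probes. Comp gave -2.27, 1.10, 2.41 and 4.47, a spread between samples larger than its mean, and was called higher without replicate 1 (2.66).

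Of 8 tendon and proteoglycan genes tested of 12, 1 was higher, 3 were lower and 4 were not called (median -0.40, and 1.09 without replicate 1 and -0.76 without replicate 5). Bgn (biglycan), a proteoglycan of bone matrix, gave 3.41, 4.13, 4.98 and 5.07 (mean 4.40 ± 0.78, adjusted p = 0.000161). Lum (lumican) gave -1.73, 0.96, 4.41 and 3.82 and was not called, and without replicate 1 it was (3.06). Thbs4 and Kera, found in tendon, were above background in the femur on replicates 3, 4 and 5 and in the reference on none. Bgn and Lum were lowest on replicate 1.

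The stroma, fat and vessels of the marrow differed in direction. Of 8 stromal genes tested of 8, 6 were lower, 1 was higher and 1 was not called (median -2.64). Over all genes tested 53.1% were lower (median -1.40). For 4 of the 8 the femur was above background on no array. Over the 2 measured in both channels on all 4 arrays, 1 higher and 1 lower, the median was 0.83. Cxcl12, the chemokine that holds stem cells in the marrow, gave -3.96, -1.40, -1.30 and -1.27 (mean -1.98 ± 1.32, adjusted p = 0.0143). The Cxcl12 call was lost under median centring (-0.76) and with no filter on dim probes. Vcam1 was at least 32.3-fold lower and Pdgfra at least 25.9-fold lower, but Lepr, the leptin receptor of stromal cells, was higher (4.31, 4.15, 3.0 and 3.06, mean 3.63 ± 0.70). Of 5 fat genes tested of 11, 3 were higher and 2 not called (median 2.01). Fabp4, the fatty acid binding protein of fat cells and capillaries, gave -1.13, 3.63, 3.87 and 5.94 (mean 3.08 ± 2.99, adjusted p = 0.0421), a call lost without replicate 3, 4 or 5 (2.12 to 2.89), and Cfd (adipsin) was above background on the same 3 arrays, replicate 1 excepted. All 5 fat genes tested were lowest on replicate 1, and Plin1 and Lep were above background on no array. Of 8 endothelial genes tested of 18, 5 were higher, 0 lower and 3 not called (median 1.21), led by Kdr, the main VEGF receptor (4.48, 4.13, 2.92 and 3.28, mean 3.70 ± 0.72), and Egfl7 (mean 3.06 ± 0.69), while Cdh5, Tek, Tie1 and Emcn were above background on no array. Of 5 smooth muscle genes tested of 7, Smtn was higher (1.66 ± 0.10, its other probe -0.82), Cnn1 was lower (-2.79 ± 1.98) and 3 were not called (median -0.44). The call for Cnn1 was lost without replicate 3 (-2.33), with no filter on dim probes, under a further loess (-1.31), under median centring (-1.57) and with normexp (-0.11). Of 7 Schwann cell and nerve genes tested of 9, 2 were higher, among them Sox10 (1.24 ± 0.63), 3 were lower and 2 were not called (median -0.38, -0.58 without replicate 3 and -0.15 without replicate 4). The call for Sox10 was lost without replicate 3 (1.06) or replicate 4 (1.07), and Mbp, the main myelin protein, was at least 16.3-fold lower.

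Cell cycle genes lay mostly below the reference. Of 27 cell cycle genes tested of 28, 18 were lower, 1 was higher and 8 were not called, with a median of -2.16. Over all genes tested 53.1% were lower and the median was -1.40. Among the 19 of them measured in both channels on all 4 arrays, 10 were lower and 1 higher, with a median of -1.09, where 20.1% of all such genes were lower and their median was 0.07. Pcna, the sliding clamp of DNA polymerase, gave -4.22, -3.38, -4.55 and -3.67 (mean -3.95 ± 0.53, adjusted p = 0.000126), Mcm4, part of the replicative helicase, gave -3.89, -3.29, -3.90 and -3.37 (mean -3.61 ± 0.33), and Rrm1, of ribonucleotide reductase, gave -3.42, -3.50, -3.13 and -3.51 (mean -3.39 ± 0.18). Top2a, which untangles replicated DNA, was at least 18.2-fold lower and Bub1, a spindle checkpoint kinase, at least 30.8-fold lower. Cdk1 was at least 22.2-fold lower by its brightest probe, while its other probe lay at 4.92. Tyms, thymidylate synthase, was the one called higher (1.07 ± 0.27), a call lost without replicate 5 (0.98). Mki67, a marker of cycling cells, lay at -1.09 ± 0.79, a lower call lost without replicate 1 (-1.08), replicate 4 (-0.95) or replicate 5 (-0.86) and with no filter on dim probes. Pcna, Mcm4 and Rrm1 were low on all 4 arrays, whereas Mcm6, another part of the helicase, gave 0.79, 1.06, 0.71 and 1.0 and was not called.

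Genes that mark cells other than those of adult bone and marrow lay on both sides of the reference. Of 6 fetal growth genes tested of 9, 6 were lower (median -2.31), among them Igf2bp3, at least 11.3-fold lower. Of 10 epithelial genes tested of 14, 6 were lower, 2 higher and 2 not called (median -2.19), with Epcam at least 14.5-fold lower and Krt18 at -2.22 ± 0.24. Of 3 liver genes tested of 14, Afp was at least 12.9-fold lower but Apoc3 (3.17, 2.94, 2.56 and 2.46) and Apoa2 (2.71 ± 0.53, its other probe -1.81) were higher, while Alb, Apoa1 and Ttr were above background on no array (median of the 3 tested, 2.71). Of 8 pluripotency and germ cell genes tested of 14, 4 were higher, 3 lower and 1 not called (median 0.21, 0.40 without replicate 3 and 1.24 without replicate 5). Nanog, a factor of embryonic stem cells, gave 4.75, 4.85, 4.33 and 3.95 (mean 4.47 ± 0.41), Lin28a gave 3.90, 4.23, 3.58 and 3.70 and Tdgf1 gave 3.92, 4.87, 4.45 and 5.03, whereas Tex19.1 was at least 12.8-fold lower and Sox2 was above background on no array. The raised ratios were even over the arrays, the list as a whole was split, and what the probes bound was not tested.

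Of 8 limb position genes tested of 18, 5 were lower and 3 not called (median -1.88, -1.19 without replicate 1), with Hoxa11 at least 5.57-fold lower and Hoxa9 not called (0.46 ± 1.48), though it was called higher without replicate 5 (1.15). Of 16 immediate-early genes tested of 17, 8 were lower and 8 not called (median -1.54). Fos was at least 26.9-fold lower and Egr1 lay at -4.30 ± 1.23, while Jun lay at 0.63 ± 0.49 and was not called. Of 13 interferon-stimulated genes tested of 16, 9 were lower and 4 not called (median -2.50), with Ifi44 at least 18.3-fold lower and Bst2 at -2.50 ± 0.32. None of the 3 lists had a member called higher. Beside these counts, 53.1% of all genes tested were lower, with a median of -1.40, so that the immediate-early genes lay at the level of all genes.

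Genes of fasting and glucocorticoid response went both ways. Of 11 tested of 11, 3 were higher, 2 lower and 6 not called (median 0.46, 0.76 without replicate 1 and 0.023 without replicate 5). Pdk4, which shuts pyruvate off from oxidation in fasting muscle, gave 2.38, 6.46, 5.16 and 5.50 (mean 4.87 ± 1.75, adjusted p = 0.000978), and Zbtb16 gave 2.32, 3.40, 3.26 and 4.50 (mean 3.37 ± 0.89). Sgk1 was lower (-3.19 ± 2.02). Of 11 Wnt and BMP ligands and inhibitors tested of 18, 3 were higher, 4 lower and 4 not called (median -0.30). The BMP antagonist Nog (noggin) gave 3.38, 4.87, 4.16 and 4.11 (mean 4.13 ± 0.61) and Bmp4 gave 2.37, 2.16, 1.90 and 1.98 (mean 2.10 ± 0.21), and Sfrp2, a Wnt inhibitor, was at least 9.69-fold lower.

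Housekeeping transcripts were mixed. Of 92 genes of oxidative phosphorylation tested of 93, 19 were higher, 17 lower and 56 not called (median 0.058, and 0.44 without replicate 1, -0.0014 without replicate 4 and -0.10 without replicate 5), and the higher ones included the 3 muscle forms of cytochrome c oxidase given with the pairs. Ndufs8, of complex I, was at least 13.7-fold lower. Of 81 cytosolic ribosomal protein genes tested of 84, 40 were lower, 1 higher and 40 not called, with a median of -1.03 that varied little between arrays (SD 0.061) and turned to 0.19 under median centring. Rps3a1 was the lowest (-4.76, -3.59, -2.84 and -3.36, mean -3.64 ± 0.81). Of 10 ubiquitous reference genes tested of 10, 4 were lower, 1 was higher and 5 were not called (median -0.89). Gapdh gave 1.25, 1.45, 1.69 and 1.83 and Actb gave 0.34, 0.46, 0.0019 and -0.24, and the 7 probes of Gapdh ran from -1.05 to 1.55.

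Beyond the lists, the lowest ratios with both channels measured were those of Ndrg1, a stress-response gene (-4.60, -3.94, -4.51 and -3.97, mean -4.25 ± 0.35), 1700073E17Rik (-4.13 ± 0.54), Tcp1, a subunit of the cytosolic chaperonin (-3.90 ± 0.31), Vim (vimentin), the intermediate filament of cultured and mesenchymal cells (-4.64, -4.00, -3.38 and -3.53, mean -3.89 ± 0.57), S100a6 (-3.56 ± 0.33), Ncl (nucleolin) (-3.51 ± 0.62) and Ctnnb1 (beta-catenin) (-3.50 ± 0.56). All were low on each of the 4 arrays. The largest lower bounds on that side were at least 58.8-fold for Ifi202b, an interferon-induced gene, 44.1-fold for Hnrnpk, an RNA-binding protein, 40.2-fold for Ccl7, a monocyte chemokine, 40.1-fold for Kif20b, a kinesin of cell division, and 39.5-fold for Dstn (destrin), an actin-cutting protein, and the other 7 named by the rule, F3, Perp, Wls, Tipin, Pdcd6ip, Smc2 and Akr1c13, lay between 35.5-fold and 37.9-fold. On the high side the remaining genes were Pde4dip (myomegalin), whose 3 probes ran from -2.94 to 9.61, Mybpc1, the slow myosin-binding protein (8.87 ± 0.69), Abcc9, a subunit of the ATP-sensitive potassium channel (at least 93.6-fold), Gm20867 and Gm20877 (at least 51.0-fold and 50.1-fold), Cbln2 (at least 37.2-fold) and Tceal7 (at least 29.2-fold).

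Probes of 1 gene did not always agree. Of 3190 genes with more than 1 tested probe, the median range between probes was 1.51 on the log2 scale, and 363 genes had a probe at 1 or above and another at -1 or below. Probes for long noncoding regions, 4249 in number, had 1706 higher, 1490 lower and a median log2 ratio of 0.18. Among all 25898 probes tested 5228 were higher and 13078 lower, and the genes measured in both channels had a median of 0.07. The sex of the mice as labelled was checked with Xist, which was not above background in the femur on any array (at least 5.88-fold lower), and with the Y-linked Eif2s3y, above background in the femur on 3 of 4 arrays, all but replicate 1. Of 5 sex-linked genes listed, 3 were tested, with 2 lower, 1 not called and 0 higher (median -2.26). A Y-linked gene was thus among those called lower, and the check does not settle the sex.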

How the data were processed

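Femur RNA of 4 G-Sham samples (Cy5) and universal mouse reference RNA (Cy3) was hybridised to 2-colour Agilent arrays, 1 sample per array on 3 slides. Per the file headers, Agilent Feature Extraction 12.0 made the deposited intensities and their log10 ratio, with background subtraction and dye normalization by the authors' scanner protocol. The deposited log10 ratio was converted to log2, control and outlier spots were left out and spots of a probe averaged. The series' value table, deposited as log10 ratios, matched the scanner files within 0.005 on the log10 scale and served as an alternative.

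Of 55681 probes, 28026 matched 1 of 21154 symbols by RefSeq accession (GRCm38.p6). The brightest tested probe stood for a gene. The log2 ratio was tested against 0 with limma 3.58.1 in R 4.3.3, and the script was tested on simulated data. Normexp (offset 50) used the deposited median signals, since mean signals were not used here. Lower bounds were taken from channels scaled by Aquantile against each array's lowest signal above background, and are open to dye bias. The labels do not say that the samples came from separate mice, although the study's methods count groups in mice, and p-values measure the spread between these 4 samples.

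The genes named are members of the gene lists, the pairs, and in each direction the 12 called genes with the largest ratio in both channels and the 12 with the largest lower bound. Some list members enter the counts and medians but are not reported here by name. Members and lists were chosen with earlier results of these data known.

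Alternatives were another dye scaling, background correction, centring, filters on dim probes, outlier spots, probe choice, samples in the fit, slide, the value table, the study's cut-off and leaving out each array. The 15-array fit with slide as a random block was chosen after seeing the data.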

Additional observations from a re-analysis of the deposited data

Results flagged for a closer look

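For 222 reported values the gap between the highest or lowest of the 4 arrays and the nearest other array was compared with the whole range, and 18 exceeded Dixon's critical ratio, which chance exceeds in about 1 group of 20. In 12 of the 18 the array apart was a low replicate 1.

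Replicate 1 was the array apart on the low side for the fast-twitch list median (4.50, the nearest array at 8.99) and the antigen presentation list median (-1.64, the nearest at -0.91). The muscle genes set apart by a low replicate 1 were Acta1 at 0.62, Mybpc2 at 1.81, Ryr1 at -1.49, Myl1 at 4.49, Myf6 at -0.34, Pgam2 at 2.44 and Cox7a1 at 1.90. Other genes low on replicate 1 were Cxcl12 at -3.96, 1700073E17Rik at -4.94 and Tipin at -6.59. Replicate 1 had the fewest probes above background in Cy5 (12861). Replicate 5 had nearly as few (13255) and was the highest array for the fast-twitch median (9.59). The part of the number of probes in these values was not tested.

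Replicate 5 was high for Tnnt1 at 5.73, Cbln2 at 6.37 and Atp6v0d2 at -0.66, and low for Gm20867 at 5.99. Replicate 4 was high for Col1a1 at 2.61 and Cd3d at 3.17.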

How the results depend on the processing

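Scaling and background correction moved the most values, and the normexp alternative changed both together. Genes higher and lower in the femur numbered 3182 and 4225 after a further loess, 3787 and 4295 after median centring, 1446 and 610 with normexp and loess, and 1628 and 1033 where both channels had to be above background on all 4 arrays. The cut-off of the study's methods gave 1848 and 6416, and leaving out 1 array gave 1780 to 2233 higher and 6800 to 7185 lower.

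List medians after a further loess were -0.74 (osteocyte), 0.90 (osteoclast), 1.47 (chondrocyte), 3.78 (erythroid), 5.17 (neutrophil) and -1.39 (cell cycle). After median centring, in the same order, they were -0.37, 0.93, 1.37, 3.72, 5.01 and -0.93. With normexp they were -0.28 (osteocyte), 1.20 (erythroid), 2.34 (neutrophil) and -0.71 (cell cycle), and with no filter -0.76 (osteocyte), 1.44 (erythroid) and 2.17 (neutrophil). With both channels required they were 3.87 (osteocyte, reversed), 2.01 (osteoclast), 5.52 (erythroid) and -0.99 (cell cycle), and the chondrocyte median was -1.18 where the same channel had to be above background. Leaving out 1 array gave erythroid medians of 2.14 to 4.12 and chondrocyte medians of -0.94 to 0.42.

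Of list medians at least 1 from 0, those that changed sign, beside that of osteocytes, were marrow stroma (0.83, both channels required), monocytes (0.12) and ribosomal proteins (0.19) under median centring, and hepatocyte genes with no filter (-0.034). Medians nearer 0 changed sign more often, that of osteoclasts under all 3 other scalings. Among named genes called here or under the alternative, sign changes were those of Cd68 (0.19), Mki67 (0.14) and Cox7a2 (1.13) under median centring, Gp9 (0.079) after a further loess, Pygb (0.011) with normexp, Cdk1 (4.92) with both channels required, Mylpf (1.48) and Runx2 (1.59) with no filter, Runx2 over the arrays left out in turn (-2.99 to 1.48, the latter without replicate 5), and Gapdh (-0.0021) by the median of its probes, where other probes entered. In the other cases the cause was not tested.

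Of 183 named genes, 8 lost their call without replicate 3, 7 without replicate 4, 11 without replicate 5 and 2 without replicate 1, and 43 lost it with normexp. Keeping outlier spots or using the series' value table changed no named gene's call, and the 15-array fits, with or without slide as a random block, ended 1 call, that of Gp9. Slide as a random block on the 4 arrays alone gave no estimate, and only 1 slide held more than 1 of them. With no filter on dim probes Acan, Acp5, Acta1, Actn1, Actn3, Bglap2, Cnn1, Cxcl12, Fabp4, Gp9, Mepe, Mki67, Myf6, Ryr1 and Sgk1 lost their calls. No paired analysis was possible because each ratio is already taken within 1 array and only 1 group of arrays was compared with the reference. The dim Cy5 channel limits what can be read on the low side.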
